A study of Homo sapiens with 121 samples.

Results

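The WNT receptors, inhibitors and effectors described here are 10 genes, taken by symbol from the 25610 genes read in the deposited TPM table. They are the Frizzled receptors FZD7 and FZD3, the co-receptor LRP6, the secreted inhibitors SFRP1, SFRP2 and DKK1, the effector β-catenin (CTNNB1) with its DNA-binding partners TCF7L1 and LEF1, and the target AXIN2. All 10 were found. They were measured in 121 single cells of WA26, an undifferentiated human embryonic stem cell (hESC) line grown in E8 medium on Matrigel, with no genotype or treatment set apart from the rest. In scT&R-seq the polyadenylated RNA and the genomic DNA of 1 cell are separated, the RNA is sequenced after Smart-seq2 amplification, and telomere length is measured by quantitative PCR as the T/R ratio, the telomere product over an Alu reference. The cells formed a long telomere group (T/R ratio over 1, n = 81), a medium group (0.4 to 1, n = 25) and a short group (under 0.4, n = 15). These groups are ranges of 1 measured quantity in 1 cell line, and no separate cultures were named for the cells. Each group is therefore 1 sample, its SD is the spread across cells, and no p-value was computed.

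In canonical WNT signalling, a WNT ligand joins a Frizzled receptor to LRP6. This stops the destruction complex, of which AXIN2 is part, from degrading β-catenin, which then enters the nucleus and acts with TCF/LEF factors on target genes. AXIN2 is itself a target and dampens the pathway again. The SFRP proteins resemble the ligand-binding domain of Frizzled and bind WNT outside the cell, whereas DKK1 binds LRP6. TCF7L1 (also called TCF3) mostly represses its targets, and in mouse embryonic stem cells it restrains the pluripotency network until β-catenin relieves it. LEF1 mostly activates, and it is known as a gene of cells leaving pluripotency.

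DKK1 and SFRP2 lay at opposite ends of the expression range of the members, and their promoters are shown for that reason. Each sequence runs from 250 bases before to 50 bases from the annotated gene start, in the direction of transcription (RefSeq, GRCh38.p14). DKK1 lies on the plus strand at chr10:52314031-52314330 and SFRP2 on the minus strand at chr4:153789034-153789333. Capitals mark the letters CTTTGAA or CTTTGAT or CTTTGTA or CTTTGTT, forms of the TCF/LEF motif, which were searched on both strands and cannot overlap one another on 1 strand.
DKK1: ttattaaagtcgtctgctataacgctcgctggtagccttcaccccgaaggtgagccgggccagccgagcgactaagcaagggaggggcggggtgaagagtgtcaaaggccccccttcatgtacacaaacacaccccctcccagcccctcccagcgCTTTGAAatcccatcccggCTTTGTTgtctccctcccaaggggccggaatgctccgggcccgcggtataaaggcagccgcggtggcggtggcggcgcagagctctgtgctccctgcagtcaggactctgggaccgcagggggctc
SFRP2: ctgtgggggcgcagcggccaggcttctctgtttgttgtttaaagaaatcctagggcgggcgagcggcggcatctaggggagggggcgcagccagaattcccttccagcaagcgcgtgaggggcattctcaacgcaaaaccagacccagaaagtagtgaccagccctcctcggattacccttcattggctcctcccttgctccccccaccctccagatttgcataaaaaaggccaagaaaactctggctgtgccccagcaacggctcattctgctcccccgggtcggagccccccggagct
The DKK1 window held 2 of these matches, CTTTGAA starting at -95 and CTTTGTT starting at -76 relative to the first transcribed base. No match was found in the windows of SFRP2, CTNNB1, TCF7L1 and LEF1, so that 1 of the 5 members with a promoter in the table held one. Among all 35116 promoters of this length, 4829 (13.8%) did. A match describes the letters of the window and is not a binding site.

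The cells carried the expression of pluripotent stem cells. All 6 pluripotency markers were detected, meaning a TPM above 1, in more than 50% of the cells of each group, and POU5F1 and LIN28A were detected in 100% of cells. The summed TPM of the 6 had a median of 2709 (798 to 3847) in the long, 2293 (705 to 3742) in the medium and 1129 (547 to 2529) in the short group. Of the markers of other lineages, GATA6 and HAND1 were detected in 0 cells, SOX17 and T in 1 cell each and FOXA2 and EOMES in 2 cells each, whereas NES was detected in 82.6%, COL1A2 in 63.6% and MIXL1 in 38.0% of cells. The other neural markers, PAX6 and SOX1, were detected in 27.3% and 7.44%. COL1A1 was detected in 17.4%, GSC in 7.44% and MESP1 in 4.96% of cells. The trophoblast markers CGA, CDX2 and TFAP2A were detected in 5.79%, 1.65% and 0.826%. The number of detected genes also moved with telomere group, at 8296 ± 2152 (SD, n = 81) in the long, 7980 ± 2070 (n = 25) in the medium and 5784 ± 2355 (n = 15) in the short group. Of the 68 cells with more than 8000 detected genes, called gene-rich here, 51 were long, 14 medium and 3 short, and of the 53 other cells, called gene-poor, 12 were short. The part of these differences in the group comparisons was not tested. The long minus short differences of the members are therefore given in all cells and again on either side of 8000 detected genes. TPM keeps no read number, so the depth behind a value is unknown.

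Members were far apart in level. The lowest TPM above 0 of a gene was smaller in longer genes (Spearman -0.431 over 4813 genes above 0 in 10 to 60 cells, with a median of 0.260 in the shortest and 0.0800 in the longest quartile), as values scaled by gene length are, although the study's methods name no such step. Under that reading levels can be set side by side, and the values that follow are means of log2(TPM + 1) over the 121 cells. SFRP2 had the highest mean, 7.03 ± 1.58 (SD), followed by CTNNB1 at 6.37 ± 1.36. In 76.0% of cells SFRP2 exceeded CTNNB1, but the mean step of 0.66 was smaller than its SD of 1.56. CTNNB1 lay above FZD3 by 2.92 ± 1.73 and was the higher of the pair in 96.7% of cells. This was the one step in the order that exceeded its own spread. FZD3 (3.44), SFRP1 (3.36), TCF7L1 (3.14), FZD7 (2.58) and LRP6 (2.47) followed, and no neighbours among them differed beyond their spread. AXIN2 had a mean of 0.94, LEF1 of 0.08 and DKK1 of 0.01.

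**Figure D1:**
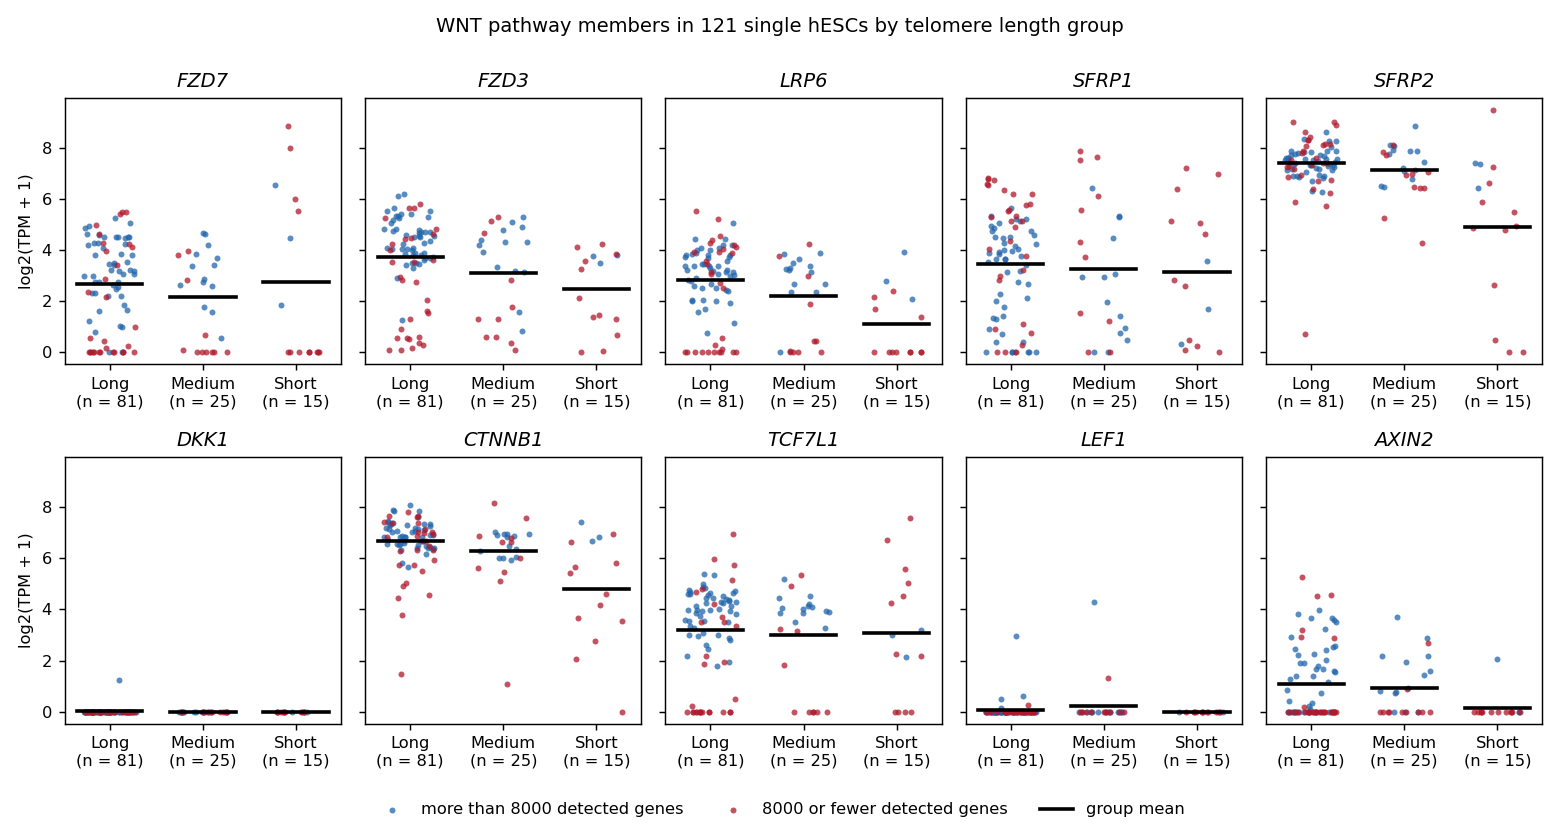
Expression of the 10 members as log2(TPM + 1), 1 point per cell, by telomere group, with the group mean as a bar and cells coloured by whether they had more than 8000 detected genes. SFRP2 and CTNNB1 are narrow high bands in long and medium telomere cells and spread downwards in short telomere cells, and DKK1 and LEF1 lie at 0 in nearly all cells.

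Among gene-rich cells, the 2 highest members were also the steadiest. The SD of log2(TPM + 1) there was 0.50 for CTNNB1 and 0.52 for SFRP2, below the lower quartile of 0.89 over the 9585 genes detected in at least 50% of these cells. Those genes were of any level, and the SDs were not set against genes of like level. In TPM, CTNNB1 ran from 49.7 to 270 with a median of 114, and SFRP2 from 76.9 to 463 with a median of 170. TCF7L1 (0.81) was also under that quartile, and LRP6 (0.90) and FZD3 (0.99) were close to it. FZD7 had an SD of 1.34, above the median gene at 1.20. The most variable member was SFRP1, with an SD of 1.87 against an upper quartile of 1.46. SFRP1 ran from 0 to 84.5 TPM with a median of 8.71 in these cells, so the pair of related inhibitors behaved differently from cell to cell.

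FZD7, a Frizzled receptor known in pluripotent stem cells, was split within the short telomere cells. Its TPM had a lowest value of 0, a median of 6.97 and a highest of 43.3 in long telomere cells. The medium telomere cells ran from 0 over a median of 5.14 to 24.1. Short telomere cells had a median of 0 and a highest value of 458. The groups overlapped, but the highest values of all lay in the smallest group: cell 8 of the short group had 458 TPM, cell 6 had 251, cell 10 had 93.3, cell 9 had 62.5 and cell 11 had 45.1, all above every long and medium telomere cell. Over all cells detection nevertheless was least common there, in 7 of 15 short telomere cells (46.7%, exact interval 21.3 to 73.4%). It was 60 of 81 long (74.1%, 63.1 to 83.2%) and 16 of 25 medium telomere cells (64.0%, 42.5 to 82.0%), with overlapping intervals. This order did not hold on either side of the split. Gene-rich cells had FZD7 in 100% of 3 short, 92.2% of 51 long and 92.9% of 14 medium telomere cells. For gene-poor cells the shares were 33.3% (n = 12), 43.3% (n = 30) and 27.3% (n = 11). Of the 30 gene-poor long telomere cells, 12 were at 0, and the median where detected was 17.8 TPM. All intervals on shares are 95% Clopper-Pearson intervals and cover counting error only. Where FZD7 was detected, the median was 62.5 TPM in short, 10.3 in long and 9.51 in medium telomere cells. The means hid this, at 2.68 ± 1.77 in long and 2.75 ± 3.40 in short telomere cells on the log2 scale. The long minus short difference was -0.07 by means and 2.99 by medians, so its sign depends on the summary. It was -1.12 among gene-rich and -0.51 among gene-poor cells. Leaving out cell 8 of the short group gave 0.37 in all cells. Without both of the highest cells the mean TPM of the short group went from 62.3 to 17.3.

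FZD3, the other Frizzled receptor, which also acts in planar polarity signalling, showed no such split. It ran from 0.0600 to 72.3 TPM with a median of 15.4 in long telomere cells. In the medium group it ran from 0.0500 to 38.1 with a median of 9.07. In the short group it ran from 0 to 17.9 with a median of 8.57. Short telomere cells lacked the upper part of the range of the other groups, while the share of cells with FZD3 detected was 87.7% in the long and 80.0% in both the medium and the short group. The mean log2(TPM + 1) was 3.74 ± 1.62 in long and 2.47 ± 1.53 in short telomere cells, a difference of 1.27 that did not exceed the larger SD. It was below 1 on both sides of the split, at 0.71 in gene-rich and 0.46 in gene-poor cells, and also by medians (0.78) and without the 11 cells with the fewest detected genes (0.94). In 74.4% of all long-short pairs of cells, FZD3 was higher in the long telomere cell.

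LRP6, the co-receptor, was the one member whose long minus short difference over all cells exceeded the SD of both groups. The share of all genes that did so was not computed. Its TPM ran from 0 to 44.9 with a median of 7.92 in long telomere cells. Medium telomere cells ran from 0 to 17.6 with a median of 5.34. Short telomere cells ran from 0 to 14.1 with a median of 0. All groups overlapped, and the high values thinned out from the long to the short group. LRP6 was detected in 67 of 81 long (82.7%, 72.7 to 90.2%), 17 of 25 medium (68.0%, 46.5 to 85.1%) and 7 of 15 short telomere cells (46.7%, 21.3 to 73.4%). The mean log2(TPM + 1) was 2.80 ± 1.47, 2.20 ± 1.55 and 1.09 ± 1.32, a long minus short difference of 1.71, and 77.5% of pairs had the higher value in the long telomere cell. Among gene-rich cells the difference was 0.21, where the 3 short telomere cells had 5.81, 3.19 and 14.1 TPM. It was 1.61 among gene-poor cells, in which 12 short telomere cells had a mean of 0.63. In neither set did the difference exceed the larger SD, which was 0.94 in gene-rich and 2.02 in gene-poor cells.

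**Figure D2:**
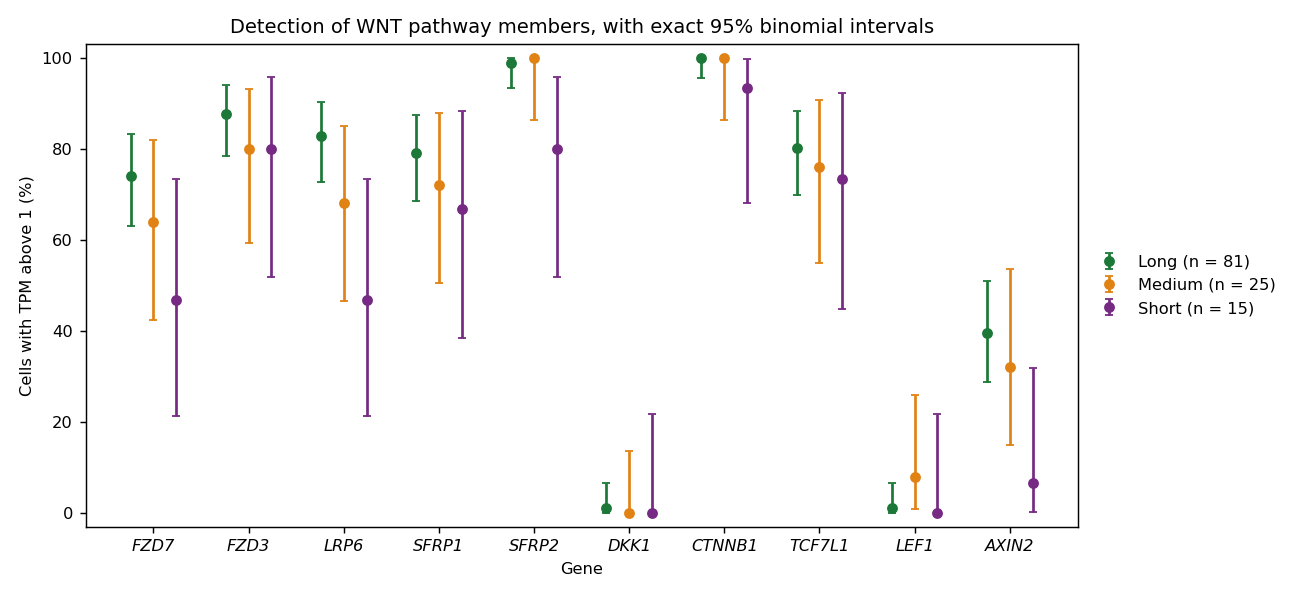
Percentage of cells with a TPM above 1 for each member in long, medium and short telomere cells, with exact 95% binomial intervals (counting error only). The short group is lowest for LRP6 and FZD7 (46.7% each), AXIN2 (6.67%), SFRP1 (66.7%), TCF7L1 (73.3%), SFRP2 (80.0%) and CTNNB1 (93.3%). For FZD3 it is level with the medium group (80.0%). Its cells also had the fewest detected genes on average, and its intervals are wide. DKK1 and LEF1 are near 0 in every group.

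The related inhibitors SFRP2 and SFRP1 differed, in that SFRP2 had the largest long minus short difference of all members and SFRP1 a small one. SFRP2 ran from 0.640 to 511 TPM with a median of 171 in long telomere cells. It ran from 18.5 to 463 with a median of 138 in medium telomere cells. In short telomere cells it ran from 0 to 715 with a median of 44.0. Both the lowest and the highest SFRP2 values of the study lay in short telomere cells, so the groups overlapped fully although their centres were apart. On the log2(TPM + 1) scale the long group averaged 7.39 ± 0.99, the medium group 7.14 ± 0.98 and the short group 4.91 ± 2.91. The long minus short difference of 2.48 was smaller than the SD of the short group, and 83.2% of long-short pairs had more SFRP2 in the long telomere cell. In the 3 gene-rich short telomere cells SFRP2 had 165, 169 and 85.3 TPM, and the difference there was 0.36. Gene-poor cells differed by 2.96.

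SFRP1 had a median of 13.8 TPM (0 to 112) in the long, 6.76 (0 to 232) in the medium and 6.12 (0 to 148) in the short group. The means of 3.43 ± 2.10, 3.26 ± 2.64 and 3.14 ± 2.64 on the log2 scale overlapped almost completely, and the long minus short difference of 0.29 became -0.16 when cells were rescaled by their median ratio. It was 1.15 in gene-rich and 0.69 in gene-poor cells. Within the long group, SFRP1 was the one member with a lower mean in gene-rich than in gene-poor cells. It averaged 3.01 ± 1.81 in the 51 gene-rich and 4.16 ± 2.37 in the 30 gene-poor long telomere cells. Its Pearson coefficient with the number of detected genes over all 121 cells was -0.208, whereas those of the other members lay between 0.0401 (LEF1) and 0.625 (FZD3). TPM values and detected gene numbers come from the same libraries.

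DKK1, which blocks LRP6, was essentially not seen. It was detected in 1 of 121 cells (0.826%), a long telomere cell with 1.36 TPM. With 0 of 25 medium telomere cells, a share of up to 12.0% is allowed if 3 cells are taken as the limit of a count of 0 (exact upper bound 13.7%). For 0 of 15 short telomere cells these limits are 20.0% and 21.8%. DKK1 lies at chr10:54074041-54077802 on the plus strand (GRCh37, as are all gene positions that follow).

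CTNNB1, encoding β-catenin, was detected in every long and medium telomere cell and in 14 of 15 short telomere cells. Its TPM ran from 1.78 to 270 with a median of 114 in long telomere cells. It ran from 1.12 to 285 with a median of 97.7 in medium telomere cells. Short telomere cells ran from 0 to 169 with a median of 41.6. The groups overlapped, and several short telomere cells lay within the bulk of the others. The mean log2(TPM + 1) was 6.68 ± 0.98, 6.31 ± 1.27 and 4.82 ± 2.11, a long minus short difference of 1.86 that was smaller than the SD of the short group. In 79.8% of pairs CTNNB1 was higher in the long telomere cell. The 3 gene-rich short telomere cells had 101, 114 and 169 TPM, within the range of the gene-rich long telomere cells, and the difference there was -0.05. Among gene-poor cells it was 1.98.

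TCF7L1, the repressor, had a median of 12.6 TPM (0 to 123) in the long, 13.6 (0 to 39.8) in the medium and 6.90 (0 to 188) in the short group. The highest value of all was in cell 4 of the short group. The means of 3.18 ± 1.82, 3.02 ± 1.87 and 3.10 ± 2.50 on the log2 scale did not separate the groups, and the long minus short difference of 0.09 became -0.30 after rescaling by the median ratio. The value over all cells joined 2 opposite differences. Among gene-rich cells TCF7L1 was higher in long than in short telomere cells, 3.91 ± 0.85 (n = 51) against 2.77 ± 0.57 (n = 3), a difference of 1.14 beyond both SDs. Among gene-poor cells it was lower, 1.94 ± 2.31 (n = 30) against 3.18 ± 2.80 (n = 12), a difference of -1.23 within the spread. The gene-rich value rests on 3 short telomere cells.

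LEF1, the activator, was detected in 3 of 121 cells, at 18.9 TPM in cell 18 of the medium group, 6.85 TPM in cell 30 of the long group and 1.48 TPM in cell 23 of the medium group. No short telomere cell had it, with the same limits of 20.0% and 21.8%. The DNA-binding partners of β-catenin thus differed in detection, with TCF7L1 in 78.5% and LEF1 in 2.48% of all cells.

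AXIN2, the feedback target, was sparse, with a median of 0 TPM and a highest value of 37.4 in long telomere cells. The medium group had a median of 0.660 and a highest value of 11.9, and in the short group 1 cell, cell 3, had 3.20. Cells at 0 were common in every group, so the groups overlapped. Detection was 32 of 81 long (39.5%, 28.8 to 51.0%), 8 of 25 medium (32.0%, 14.9 to 53.5%) and 1 of 15 short telomere cells (6.67%, 0.169 to 31.9%). The mean log2(TPM + 1) was 1.09 ± 1.46 in long and 0.14 ± 0.53 in short telomere cells, a difference of 0.95. Without cell 3 of the short group the difference was 1.09. Gene-rich cells differed by 0.58 and gene-poor cells by 0.79.

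Counted over the members, the comparison of long with short telomere cells was close to that of all genes detected as often. A gene is counted as higher or lower when its mean log2(TPM + 1) differed by 1 or more. Of the 10 members, 8 passed the filter of a TPM above 1 in at least 5 cells, which left out LEF1 and DKK1. FZD3, LRP6, SFRP2 and CTNNB1 were higher in long telomere cells, which is 4 of the 8 that passed, and 0 were lower. Of all 15956 genes that passed, 32.7% were higher and 3.18% lower in long telomere cells. Low genes can hardly reach a difference of 1, and among the 7900 genes detected in at least 50% of the cells 60.3% were higher and 2.56% lower in long telomere cells. The members in that set numbered 7, of which 4 were higher (the ones named above) and 0 lower. The median difference was 1.27 over these 7 members and 1.24 over the 7900 genes.

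Long and medium telomere cells were close. None of the 8 members differed by 1 or more between them, where 0.752% of all genes were higher and 0.326% lower in long telomere cells. The differences ran from 0.16 (TCF7L1) to 0.65 (FZD3), each smaller than the SD of either group. Medium telomere cells exceeded short telomere cells by 1 or more in 3 members, SFRP2 (2.23), CTNNB1 (1.49) and LRP6 (1.11), and 0 were lower, against 28.5% of all genes higher and 3.48% lower. This comparison and that of long with short telomere cells share the short cells.

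**Figure D3:**
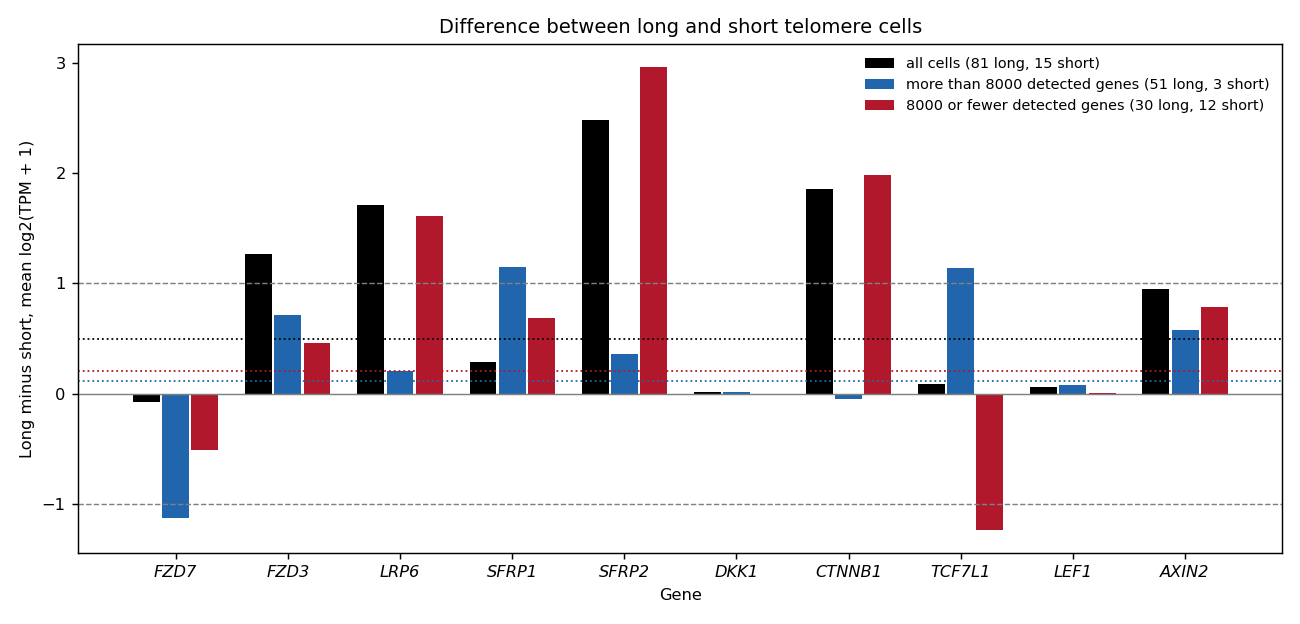
Difference of mean log2(TPM + 1) between long and short telomere cells for each member, in all cells and on either side of 8000 detected genes. Dashed lines mark 1 and -1, and dotted lines mark the median of all genes that passed the filter (0.50 in all, 0.12 in gene-rich and 0.21 in gene-poor cells). SFRP2, CTNNB1 and LRP6 differ in all and in gene-poor cells but by 0.36, -0.05 and 0.21 in gene-rich cells.

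Restricting the cells changed which members were counted. Among gene-rich cells SFRP1 (1.15) and TCF7L1 (1.14) were higher in long telomere cells and FZD7 (-1.12) was lower, with 9.60% of all genes higher and 8.67% lower. Of the 4 members higher in all cells, 0 reached a difference of 1 there. Among gene-poor cells SFRP2 (2.96), CTNNB1 (1.98) and LRP6 (1.61) were higher and TCF7L1 (-1.23) was lower, with 22.3% of all genes higher and 6.33% lower. The 3 gene-rich short telomere cells each had 7 members detected, as many as the typical gene-rich cell (7.18 ± 0.73, n = 68). Gene-poor short telomere cells had 4.42 ± 1.98 (n = 12). Between long and medium telomere cells 0 of the 8 members differed by 1 or more in either set. In gene-rich cells 0.815% of all genes were higher and 0.570% lower in long than in medium telomere cells, and in gene-poor cells 5.03% and 4.37%. Between medium and short telomere cells, TCF7L1 (1.30) was higher and FZD7 (-1.26) lower in medium telomere cells among gene-rich cells, with 9.55% of all genes higher and 10.7% lower. Among gene-poor cells SFRP2 (2.31) and CTNNB1 (1.72) were higher and FZD7 (-1.33) and TCF7L1 (-1.50) lower, with 22.0% of all genes higher and 6.85% lower.

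Against the T/R ratio itself, taken cell by cell, the coefficients of the members were small. Points in these correlations are cells of 1 line that share library preparation and differ in the number of detected genes, and the coefficients are descriptions. LRP6 had a Pearson coefficient of 0.253 (Spearman 0.294, n = 121) and was the one member at 0.2 or more, a limit that 7.21% of all genes reached. At -0.2 or less there were 0 members and 2.65% of all genes. CTNNB1 followed with 0.188 (Spearman 0.271) and SFRP2 with 0.142 (Spearman 0.235). Partial coefficients that hold the detected gene number constant were 0.246 for LRP6, 0.178 for CTNNB1 and 0.139 for SFRP2. FZD7 had -0.162 by Pearson but 0.0691 by Spearman, and 0.00752 by Pearson without the 2 short telomere cells with the most FZD7. The coefficients of the other members lay between -0.105 (TCF7L1) and 0.129 (AXIN2).

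In gene-rich cells (n = 68) FZD3 had 0.271, FZD7 -0.292 and LRP6 0.195, so that 1 member was at 0.2 or more, where 8.57% of all genes were, and 1 at -0.2 or less, where 5.01% were. Among gene-poor cells (n = 53) LRP6 (0.277), CTNNB1 (0.213) and SFRP2 (0.212) reached 0.2, as did 13.8% of all genes, while 0 members and 7.94% of all genes were at -0.2 or less. SFRP2 had -0.0676 in gene-rich cells, opposite in sign to the gene-poor value. The coefficient of LRP6 was positive in both sets.

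Within single telomere groups these coefficients differed in size and sign. LRP6 had 0.0243 in the 81 long telomere cells (-0.0847 on the log2 scale), 0.0871 in the 25 medium and 0.180 in the 15 short telomere cells. For CTNNB1 the long group gave -0.142, the medium group -0.0196 and the short group 0.338. The value of LRP6 over all cells was not seen within the largest group. Each group covers only a part of the range of the T/R ratio, so coefficients within it are not like those over all cells. FZD3, positive in gene-rich cells, had -0.267 within the long group (Spearman -0.266, and -0.410 on the log2 scale) but 0.210 in medium and 0.378 in short telomere cells. SFRP2 had -0.0495, -0.390 and 0.0824. Partial coefficients holding the detected gene number constant differed from these, given here for the long, medium and short group in turn. They were -0.168, 0.0727 and -0.00801 for FZD3 and 0.0490, -0.0984 and -0.342 for LRP6. For CTNNB1 they were -0.0419, -0.0352 and 0.0284, and for SFRP2 -0.119, -0.494 and -0.0474.

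**Figure D4:**
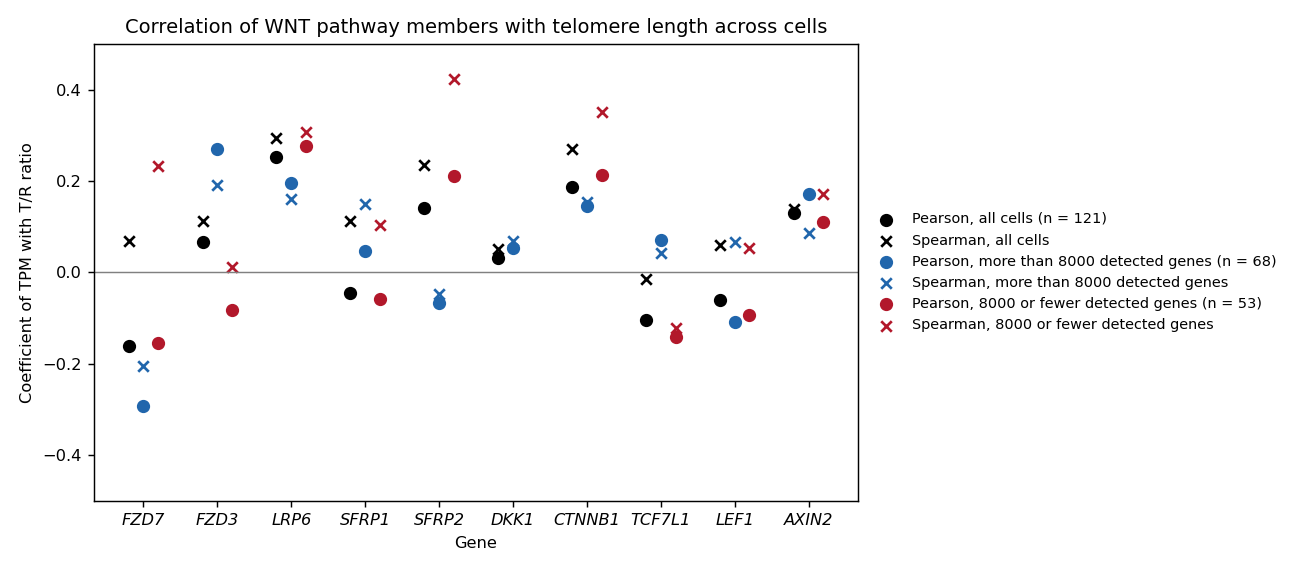
Pearson (points) and Spearman (crosses) coefficients of TPM with the T/R ratio for each member in all cells and on either side of 8000 detected genes. LRP6 lies between 0.161 and 0.308 throughout, FZD7 changes sign between measures in all and in gene-poor cells but is negative by both in gene-rich cells, and DKK1 has no value in gene-poor cells because it was 0 in all of them.

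Members varied together weakly. Over the 28 pairs of the 8 members that passed, the Pearson coefficient of log2(TPM + 1) had a median of 0.195 in all cells, with the highest value of 0.533 for FZD3 and LRP6. In gene-rich cells the median was 0.0754 and the range ran from -0.301 (FZD7 with TCF7L1) to 0.324 (FZD7 with CTNNB1). SFRP2 and CTNNB1, the highest members, had 0.445 in all cells and 0.00772 in gene-rich cells. SFRP1 and SFRP2 are related inhibitors, but neither was among the genes most like the other. Among the 9585 genes compared over the 68 gene-rich cells, the gene most like SFRP1 was H2AFY (0.601) and the next C1orf122 (0.523). The 2 genes closest to SFRP2 were RNPS1 (0.545) and CCDC137 (0.534). FZD3 was most like EIF4A2 (0.627) and DDX17 (0.620), and LRP6 most like NIPBL (0.523) and GPRC5B (0.501). None of the genes named here was a member. CTNNB1 was most like OCLN (0.484) and MYH10 (0.445), and FZD7 like LMTK2 (0.488) and RPL21P44 (0.472). TCF7L1 was closest to DNAJB2 (0.432) and MAP2K1 (0.430), and AXIN2 to TUBGCP4 (0.442) and LOC439994 (0.439). Each of these is the top of 9585 genes over 68 cells. How high such a top value would be among unrelated genes was not tested.

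The rest of the pathway was followed in a list of 86 further genes, of which 54 passed the filter and 11 were detected in no cell. Of the 54, 14 were higher by 1 or more in long than in short telomere cells, 1 was lower and 39 lay between, where 32.7% of all genes were higher and 3.18% lower. The median difference was 0.36 against 0.50 over all genes. In gene-rich cells 4 were higher and 8 lower (median -0.02), where 9.60% of all genes were higher and 8.67% lower. In gene-poor cells 9 were higher and 3 lower (median 0.24), where 22.3% of all genes were higher and 6.33% lower.

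WNT ligands were low or undetected. Of 19 listed, 4 passed and 7 were detected in no cell, and the highest mean log2(TPM + 1) was 1.03 for WNT5A, followed by WNT3 and WNT7B, both at 0.76. None of the 4 differed by 1 or more. PORCN, which acylates the ligands, had a mean of 1.77, and WLS, which carries them to the surface, had 0.24. Of the 12 other receptors and co-receptors 10 passed and 4 were higher in long telomere cells. ROR1 (3.11) and RYK (3.07), both receptors of non-canonical signalling, had the highest means among them. On the R-spondin axis, which raises the surface level of Frizzled and LRP6, LGR4 had a mean of 3.55 and LGR5 of 0.25, and 1 of the 4 that passed, LGR4, was higher in long telomere cells.

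Among the 11 other inhibitors and their receptors, 5 passed, KREMEN1 (1.53) and FRZB (1.04) had the highest means, and 1 was lower in long telomere cells. This was KREMEN1, a receptor of DKK proteins, with a mean of 1.43 ± 0.85 in long and 2.82 ± 2.06 in short telomere cells. Its difference of -1.39 was 0.50 in gene-rich and -2.01 in gene-poor cells. Of the 14 cytoplasmic components 13 passed and 6 were higher in long telomere cells. CSNK1A1, the casein kinase that primes β-catenin for degradation, had the highest mean of the whole list (6.51) and CSNK1D the next of this role (2.74). CSNK1A1 also had the largest long minus short difference, 3.12, with 6.99 ± 1.08 in long and 3.87 ± 3.09 in short telomere cells. In gene-rich cells the difference was -0.03. LGR4 (1.97) and RYK (1.90) came next, and they too were at -0.65 and -0.31 in gene-rich cells.

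All 11 further nuclear components passed, and 2 were higher in long telomere cells. TCF7L2, a relative of TCF7L1 and LEF1, had a mean of 3.48, and TLE1, a co-repressor of TCF factors, of 2.73. Of 8 further target genes 5 passed and 1 was higher, CCND1, which encodes cyclin D1 and had a mean of 5.31 and a difference of 1.40, which was 0.33 in gene-rich and 1.62 in gene-poor cells. MIXL1, an early mesendoderm gene, had a mean of 1.33 and a difference of -0.89. The remaining one of the 3 smallest differences was -0.93 for the ligand WNT7B.

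**Figure D5:**
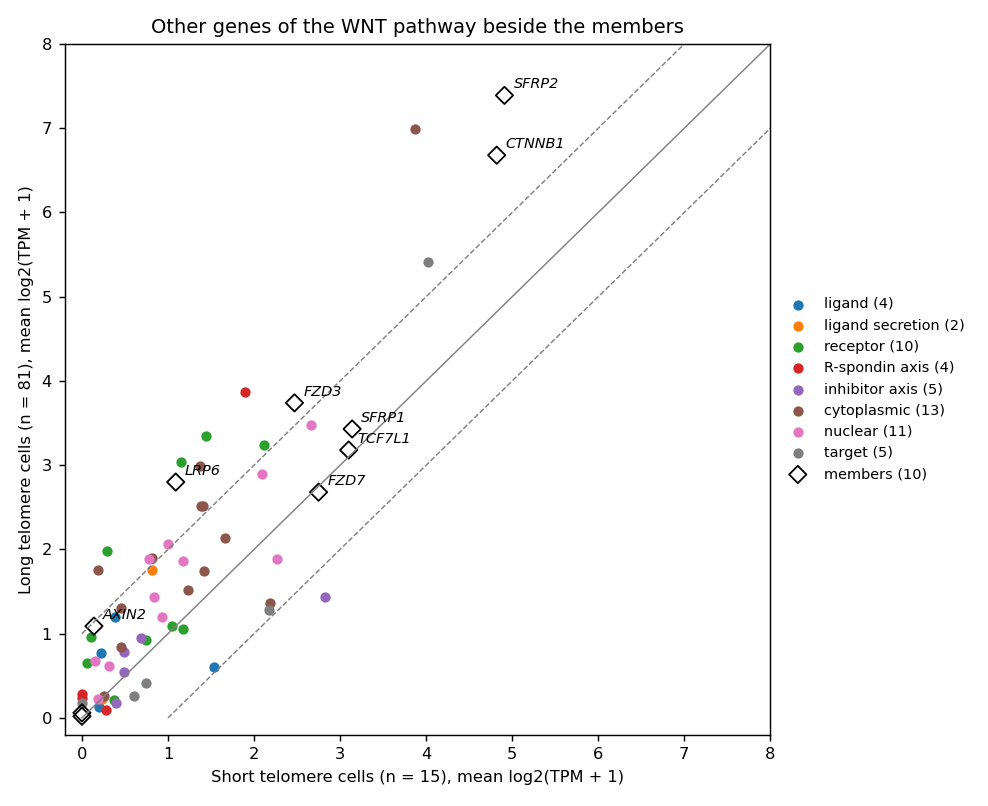
Mean log2(TPM + 1) in short (x axis) and long telomere cells (y axis) for the 54 further pathway genes that passed the filter, coloured by role, and for the 10 members (diamonds, LEF1 and DKK1 unnamed at the origin). The solid line marks equal means and the dashed lines a difference of 1. LRP6, FZD3, CTNNB1 and SFRP2 lie above the upper dashed line, FZD7, TCF7L1 and SFRP1 near the solid line, and AXIN2 just under the upper dashed line.

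Some values rest on genes that overlap others. CTNNB1 (chr3:41236232-41301587, plus strand) overlaps ULK4 on the opposite strand. LRP6 (chr12:12268959-12419978, minus strand) overlaps 4 genes on the opposite strand, among them BCL2L14 and RPL21P100. LEF1 (chr4:108968701-109090112, minus strand) overlaps LEF1-AS1, and DKK1 overlaps PRKG1-AS1. The use of strand in counting was not stated, so reads from any bases shared with these partners cannot be told apart. FZD7 (chr2:202898578-202903164, plus strand) and SFRP2 (chr4:154701743-154710235, minus strand) have no overlapping gene in the annotation used. TCF7L1 (chr2:85360515-85537510, plus strand) overlaps 3 genes on its own strand, among them TCF7L1-IT1, and SNRPEP11 on the other. AXIN2 (chr17:63524681-63557766, minus strand) overlaps 1 gene on its own strand. FZD3 overlaps 1 and SFRP1 2 genes on their own strand, and each overlaps 2 on the other.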

How the data were processed

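Single cells of the WA26 line were sequenced after Smart-seq2. The authors deposited TPM values, 1 column per cell. The labels name hg19, TopHat2 and RSEM, while the study's methods name TopHat, HTSeq counts per RefGene gene and, for its TPM table, normalization of counts by library size with size factors. No length step is named there, but in the deposited TPM the lowest values were smaller in longer genes. Each value has 2 decimals. The 25610 genes read, in symbol order up to ZFR, add up to between 979828 and 997050 TPM in a cell, and later genes were not analysed here. No 2 cells had identical values. T/R ratios per cell came from the study's supplement and entered correlations alone.

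Python 3.11.15 with pandas 2.3.3, numpy 2.4.6 and scipy 1.17.1 gave means and SDs of log2(TPM + 1) (pseudocount 1, which understates differences of low genes), shares of cells above TPM 1 and Pearson coefficients of TPM with the T/R ratio, and was tested on simulated data. Cells are not replicates, so no test across cells was run. The filter kept genes above TPM 1 in at least 5 cells. The members, gene lists and the split at 8000 detected genes were chosen with earlier results of these data known.

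All members are named. Of the wider list, the 2 genes of highest mean in each role and the 3 largest and 3 smallest long minus short differences are named, and for each member detected in at least 50% of the gene-rich cells the 2 genes most like it. Members were matched to RefSeq promoters by symbol, with 5 of 10 found, and positions are from a GRCh37 annotation. The alternatives tried were a pseudocount of 0.1 or 10, a detection limit of TPM 0 or 10, group medians, Spearman's rho, log2 values or partial coefficients, rescaling by the median ratio, gene-rich or gene-poor cells, and leaving out the 11 cells with the fewest detected genes or the 2 farthest from the median T/R ratio. A filter of detection in at least 50% of the cells, leaving out each short or medium telomere cell and leaving out the 2 short telomere cells with the most FZD7 were added after seeing the data.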

Additional observations from a re-analysis of the deposited data

How the results depend on the processing

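TPM keeps no depth, each telomere group is 1 sample, and 3 of 15 short telomere cells had more than 8000 detected genes, which limits every comparison with that group. No paired analysis was possible because no result came from a test and the replicate numbers only name cells. The pseudocount changed the counts of differences of 1 or more. With 0.1, 5 members, 27 of the wider pathway genes and 51.4% of all genes were higher by 1 or more in the long than in the short group. With 10 these were 2 members, 1 wider gene and 9.04%. In gene-rich cells 2 members were higher and 1 lower in long than in short telomere cells, 1 was higher in medium than in short, and 4 wider genes and 9.60% of all genes were higher in long. CTNNB1 turned there, to -0.05 for long minus short and -0.43 for medium minus short. In gene-poor cells 1 member was lower, 2 were higher in medium than in short, and 9 wider genes were higher in long. Rescaling by the median ratio over the 602 genes above 0 in every cell moved the median long minus short difference of all genes by -0.23. It left 3 members higher in long than in short (LRP6 1.47, SFRP2 1.99, CTNNB1 1.36), with FZD3 at 0.66. It also left 8 wider genes higher, where 24.5% of all genes were. For medium against short telomere cells it left 1 member higher, and the share of all genes was not computed. The stricter filter raised the share of all genes higher in long than in short telomere cells to 60.3%, and 13 wider genes were higher under it. How many wider genes passed the stricter filter was not counted, so the 13 have no share to set beside 60.3%. Against the T/R ratio, 1 member passed 0.2 in size in the values given, 3 with Spearman's rho, 3 on the log2 scale, 3 without the 2 cells farthest from the median, 2 in gene-rich and 3 in gene-poor cells and 2 after rescaling. The share of all genes at that limit was computed only for the values given and for gene-rich and gene-poor cells. Leaving out each short or medium telomere cell gave 4 to 5 members, 12 to 17 wider genes and 30.7 to 35.5% of all genes higher in long than in short telomere cells. The fifth member was AXIN2, at 1.09 without cell 3 of the short group. The cause of these changes was not tested. Of the values of single members under the alternatives, 332 moved by less than the larger SD of the 2 groups (coefficients by less than 0.1, shares within their interval). Another 28 were counted as moved further, and 2 that had been at 1 or more turned, as given above for CTNNB1. The 28 include DKK1, medium minus short, with either other pseudocount, which stayed at 0.00 with an SD of 0. The SD limit is wide for the short group. It passed FZD7 from -0.07 to 2.99 by medians and SFRP2 from 2.48 to 0.36 in gene-rich cells, both long minus short. Counting also values under those limits, 37 of 342 differences and coefficients changed sign, in 8 members, chiefly FZD7, SFRP1 and TCF7L1, so the direction of these 3 is not settled.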
